A study of Sus scrofa with 599 samples.

Results

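The catecholamine and natriuretic peptide receptors of fat tissue were followed as 7 protein-coding genes (PCGs) chosen by symbol, out of 21280 PCGs in the expression table. They were the beta-adrenoceptor genes ADRB1 (ENSSSCG00000010647) and ADRB3, the alpha-adrenoceptor genes ADRA1A and ADRA2A, and the natriuretic peptide receptor genes NPR1, NPR2 and NPR3. The rule set no limit on any measured value, and all 7 symbols were found in the table. Transcripts had been sequenced from fat of female Bama miniature pigs aged 2 years. The normal condition (NC) pigs received a normal diet throughout. The weight-gain (WG) pigs received a high-fat diet for 22 weeks, and the weight-loss (WL) pigs were high-fat fed pigs that then received 10% of the normal caloric intake for 12 weeks. Because the WL pigs were sampled after both periods, restriction and elapsed time cannot be told apart. Each pig gave up to 4 depots, of which 3 were visceral, the greater omentum (GOM), the mesenteric fat (MAD) and the retroperitoneal fat (RAD). The upper layer of backfat (ULB) was subcutaneous. The RNA samples numbered 9, 12, 12 and 5 in NC for GOM, MAD, RAD and ULB. There were 45, 36, 39 and 38 in WG in the same order, and 10 in each depot in WL.

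Adrenaline and noradrenaline reach fat cells through adrenoceptors that couple to different G proteins. Beta-adrenoceptors raise cyclic AMP and so drive lipolysis, alpha-2 receptors lower it, and alpha-1 receptors signal through calcium. The natriuretic peptides of the heart act on the guanylyl cyclase receptor encoded by NPR1, whose cyclic GMP also promotes lipolysis. NPR2 encodes a related cyclase receptor, for C-type natriuretic peptide, whereas the NPR3 product lacks the cyclase and removes the peptides from the circulation.

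Depth ranged from 3337098 to 22939420 estimated counts on PCGs per library, with a median of 16791659.5. In 40 of the RNA libraries, under 88% of the summed TPM (abundance scaled for transcript length and library size) fell on PCGs, the rest being noncoding transcripts. These libraries were spread unevenly over the groups, with 7 of 9 in NC GOM, 2 of 12 in NC MAD, 6 of 12 in NC RAD, 2 of 5 in NC ULB, 6 of 10 each in WL GOM and WL MAD, 2 of 10 in WL RAD, 3 of 10 in WL ULB and 6 in all of WG. Calls that were lost or gained with a term for this library set, or in libraries at 88% or more, are given beside the results. Adipocyte markers also moved with the groups. The median summed TPM of 5 such markers was 3130 in NC GOM against 7733, 6689 and 5816 in NC MAD, RAD and ULB, and 4752, 4716, 7001 and 7404 in the 4 WL depots. The WG medians were closer together, from 4610 in GOM to 6281 in RAD. Of 6 mesothelial markers 3 were matched, and their summed median was 72.6, 45.2 and 69.4 TPM in GOM of NC, WG and WL but at most 13.3 TPM in any other group. Medians of 5 macrophage markers were 418, 208, 279 and 334 TPM in GOM, MAD, RAD and ULB of NC, 578, 470, 428 and 369 TPM in WG, and 370, 370, 401 and 498 TPM in WL. Those of 4 endothelial markers lay between 425 and 505 TPM in the NC depots, 582 and 707 TPM in WG, and 615 and 778 TPM in WL. Fibroblast and progenitor markers (5 genes) stood at 2143, 2134, 1741 and 2777 TPM in WG and at 1895, 1310, 1506 and 1534 TPM in WL. The part of these markers in the results was not tested. In whole tissue, fewer cells of a type and less RNA per cell cannot be told apart.

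The 7 genes differed widely in abundance per length. NPR1 was the most abundant, with group medians of 87.9 to 194 TPM over the 12 diet-by-depot groups, followed by NPR3 with 15 to 163 TPM. NPR2 had medians of 9.33 to 13.2 TPM, ADRB1 of 1.96 to 13.5 TPM, ADRA2A of 0.627 to 6.72 TPM and ADRA1A of 1.48 to 5.69 TPM. ADRB3 stayed at medians of 0.0781 to 0.390 TPM. ADRB1 and ADRA2A are annotated in RefSeq by their coding part alone. The TPM values rest on the Ensembl gene models that the paper used, whose lengths were not examined here. The place of these genes in the order depends on those lengths.

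**Figure D1:**
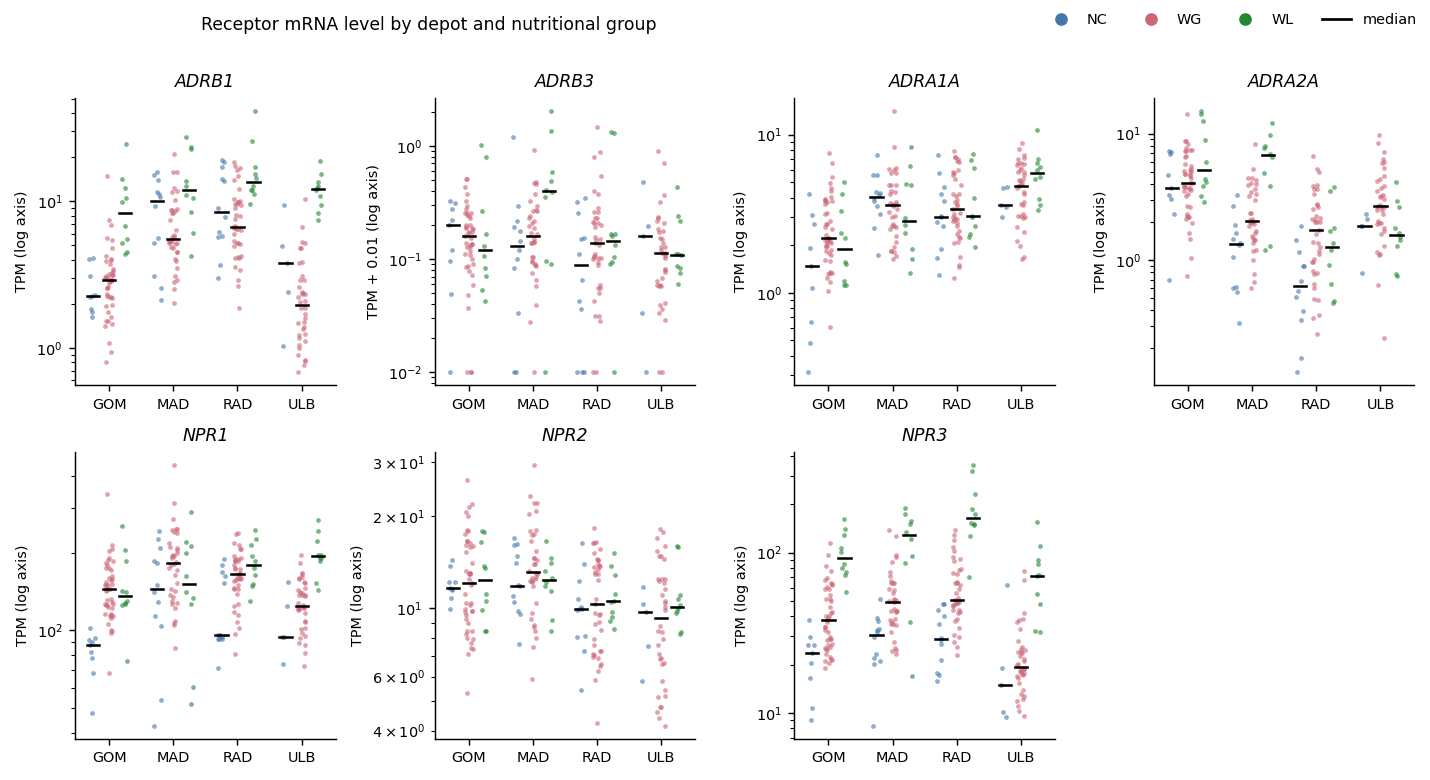
TPM of each receptor gene (log axis; 0.01 added for ADRB3 so that zeros can be drawn) in each RNA sample, by depot on the x axis and by nutritional group in colour, with a black line at each group's median. ADRB1 and NPR3 are higher in WL than in WG in every depot, NPR2 is nearly level, and ADRB3 lies mostly under 0.5 TPM.

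Of the 7 genes, 6 could be tested, since ADRB3 never exceeded 0.5 TPM in 80% or more of a group's samples in any of the 26 comparisons. A gene was called when its adjusted p (edgeR's quasi-likelihood test, Benjamini-Hochberg adjustment over all genes tested) was below 0.05 and its fold exceeded 1.5. From NC to WG, 4 of 24 gene-by-depot tests were called, all higher in WG. Of all genes tested, 26.7%, 10.7%, 16.7% and 2.38% were called in GOM, MAD, RAD and ULB. From WG to WL, 9 of 24 were called, all higher in WL, against 5.26%, 17.4%, 6.37% and 8.12% of all genes in GOM, MAD, RAD and ULB. No member was called lower in either step, and no member's sample ranges were apart between any groups compared.

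**Figure D2:**
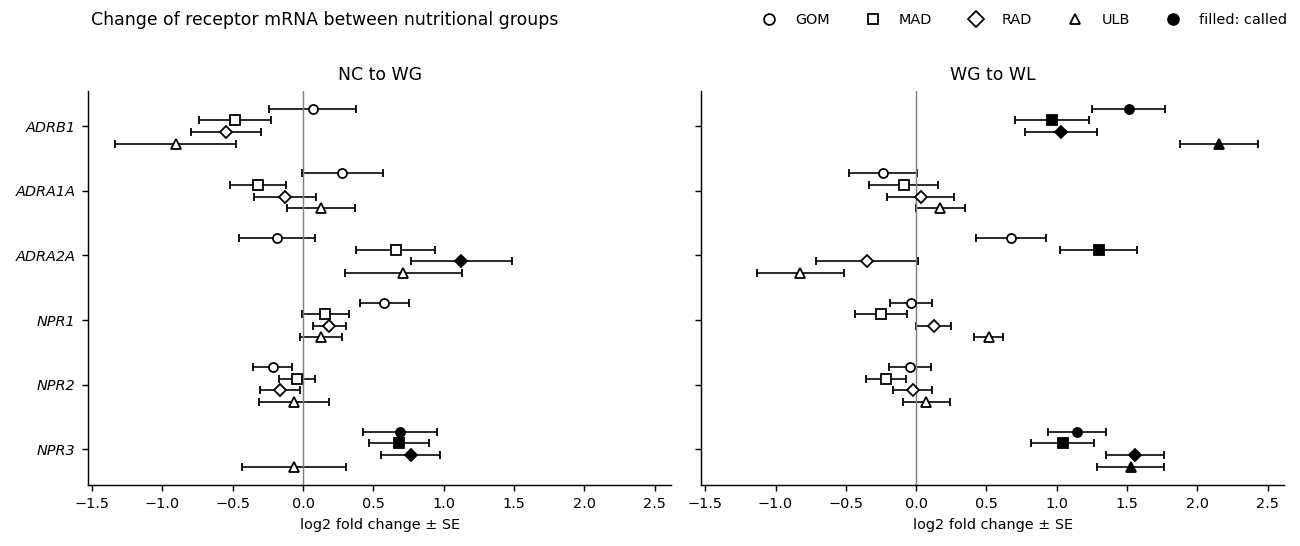
log2 fold change with its standard error (SE, bars) of each tested receptor gene from NC to WG (left) and from WG to WL (right), with a marker shape for each depot and filled markers for called changes. ADRB1 and NPR3 are called in all 4 depots on the right panel, with values of 0.97 to 2.15 and 1.04 to 1.56.

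Between depots, 7 of 36 gene-by-pair tests were called in NC, 12 of 36 in WG and 8 of 36 in WL. In NC the share of all genes called was 17.7% for GOM against MAD, 19.5% for GOM against RAD, 25.4% for GOM against ULB, 2.41% for MAD against RAD, 7.73% for MAD against ULB and 4.32% for RAD against ULB. The corresponding shares were 6.27%, 11.2%, 17.9%, 5.4%, 14.4% and 9.27% in WG and 5.97%, 12.2%, 16%, 7.31%, 14.4% and 4.34% in WL. All 7 calls in NC involved GOM. In WG, 5 of the 12 did not, namely ADRB1 and NPR3 in MAD and RAD against ULB and ADRA2A in RAD against ULB. The number of calls in NC fell to 4 with a term for the library set, to 3 in libraries at 88% or more and to 2 in those under 88%. In WL it fell to 3 in libraries at 88% or more.

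**Figure D3:**
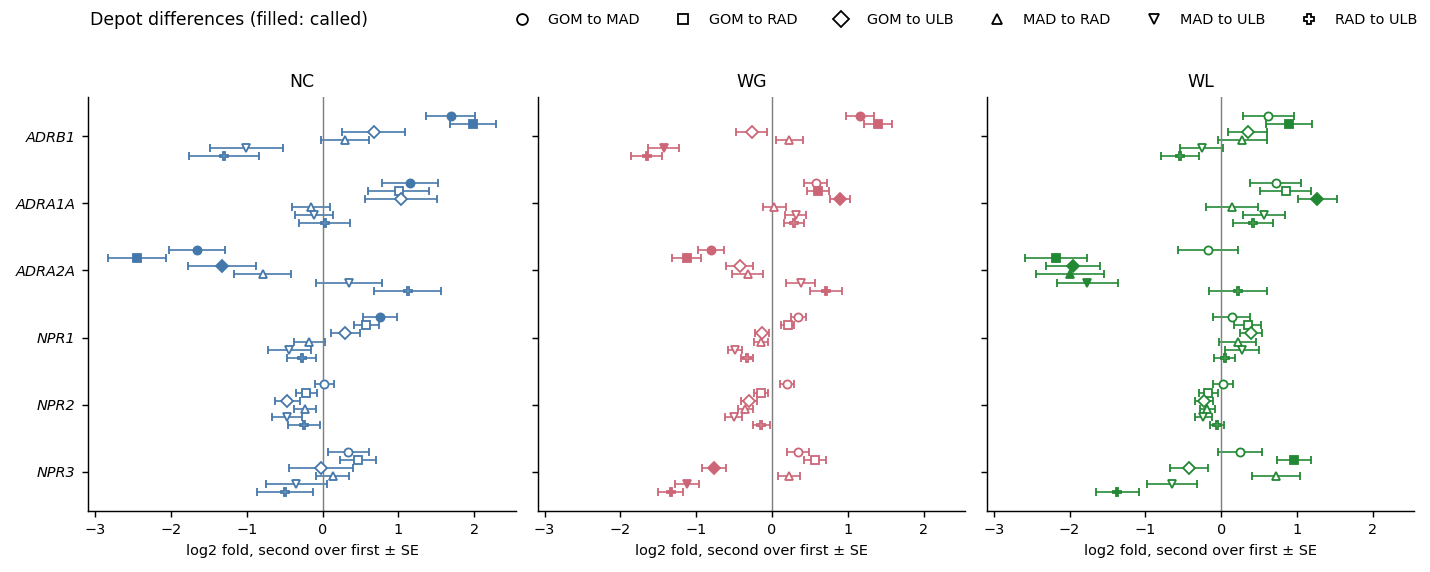
log2 fold with its SE (bars) of each tested receptor gene between depots, second depot over first, in NC, WG and WL, with a marker shape for each pair of depots and filled markers for called differences. ADRB1 lies to the right of 0 from GOM to RAD in all 3 panels, ADRA2A lies to the left from GOM to RAD, and NPR2 stays within 0.51 of 0.

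ADRB1, which encodes the beta-1 adrenoceptor, lies at chr14:124400330-124401739 on the plus strand of Sscrofa11.1 as a single coding exon in RefSeq. In NC its level ranged from 1.62 to 4.09 TPM in GOM (median 2.26), from 2.12 to 16 in MAD (median 10.0) and from 3.01 to 19 in RAD (median 8.43). The 5 NC ULB samples stood at 4.96, 9.44, 2.41, 1.03 and 3.83 TPM. In WG the medians were 2.89, 5.53, 6.66 and 1.96 TPM in GOM, MAD, RAD and ULB, and in WL they were 8.36, 11.9, 13.5 and 12.2 TPM. ULB thus had the lowest median in WG and stood close to MAD and RAD in WL, with ranges of 0.685 to 10.3 TPM in WG ULB and 7.51 to 18.8 TPM in WL ULB that still overlapped. ADRB1 rose from WG to WL in ULB by 2.15 ± 0.28 (SE) on the log2 scale, a 4.45-fold difference (adjusted p = 1.59e-07, edgeR). It rose by 1.51 ± 0.26 in GOM (adjusted p = 8.31e-05, edgeR), by 0.97 ± 0.26 in MAD (adjusted p = 0.00468, edgeR) and by 1.03 ± 0.26 in RAD (adjusted p = 0.0052, edgeR). The size of the change was not called different between ULB and the other depots, the nearest being MAD minus ULB at -1.16 ± 0.42 (adjusted p = 0.0717, edgeR). With the replicate number within a nutritional group as a block, it was called for MAD, at -1.47 ± 0.32 (adjusted p = 0.000337, edgeR), and for RAD, at -1.34 ± 0.31 (adjusted p = 0.00618, edgeR). The call in MAD was lost with a term for the library set, at 0.50 (adjusted p = 0.281, edgeR), while the other 3 remained under both library settings. Median summed adipocyte markers in ULB were 4802 TPM in WG and 7404 TPM in WL. In MAD they were 5962 and 4716 TPM.

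From NC to WG, ADRB1 was not called in any depot by edgeR or DESeq2, although 2 of 4 had an unadjusted p below 0.05, with log2 folds of 0.07 ± 0.31, -0.48 ± 0.25, -0.55 ± 0.25 and -0.91 ± 0.43 in GOM, MAD, RAD and ULB. With a term for the library set, RAD passed at -1.01 (adjusted p = 0.0219, edgeR), and in libraries at 88% or more MAD passed as well, at -0.74 (adjusted p = 0.0399, edgeR). Between depots, ADRB1 was higher in MAD and RAD than in GOM in NC, by 1.69 ± 0.32 (adjusted p = 0.000849, edgeR) and 1.98 ± 0.31 (adjusted p = 4.09e-05, edgeR). The same held in WG, by 1.16 ± 0.19 and 1.4 ± 0.18. In WG it was also lower in ULB than in MAD and RAD, by 2.69-fold and 3.14-fold. In WL only GOM to RAD was called, at 0.89 ± 0.31 (adjusted p = 0.0445, edgeR). Replicate 3 was the highest ADRB1 sample in both of these WL depots. Without it in RAD, at 41.3 TPM, the difference was 0.69 and not called (adjusted p = 0.105, edgeR). Without it in GOM, at 24.7 TPM, the difference was 1.12 and stayed called (adjusted p = 0.00731, edgeR). The WL call was also lost with the term for the library set (adjusted p = 0.0614, edgeR). The NC difference between GOM and MAD was 1.07 with that term (adjusted p = 0.148, edgeR), and 0.06 within the libraries under 88%.

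ADRB3 encodes the beta-3 adrenoceptor, known from rodent adipocytes, and lies at chr15:48468803-48478370 on the plus strand. It was barely detected. The group medians corresponded to 2.62 to 15.6 estimated counts, and 1 to 3 samples stood at 0 TPM in each NC and WG group. WL MAD had the highest median, 0.390 TPM (range 0 to 2.03), with 3 of 10 samples above 0.5 TPM. WL ULB ranged from 0.0496 to 0.425 TPM. These levels were too low for a test under the filter. Without the filter, ADRB3 passed in MAD from WG to WL, at 1.64 (adjusted p = 0.00283, edgeR), and from MAD to ULB in WL, at -2.06 (adjusted p = 0.0277, edgeR). With 0.1 TPM added to both genes, which draws ratios of low values towards 0, the median log2 ratio of ADRB3 to ADRB1 TPM lay between -5.89 in WL RAD and -3.38 in WG ULB, and no sample had more ADRB3 than ADRB1.

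ADRA1A encodes the alpha-1A adrenoceptor and spans chr14:10623391-10733378 on the minus strand. GOM had the lowest median in each nutritional group, at 1.48 TPM in NC (range 0.314 to 4.2), 2.22 in WG (0.609 to 7.61) and 1.89 in WL (1.12 to 5.01). ULB had 3.59, 4.77 and 5.69 TPM, and MAD and RAD lay between 2.84 and 4.05 TPM. The 5 NC ULB samples were tightly placed, at 3.59, 4.60, 4.67, 3.0 and 3.50 TPM. ADRA1A was higher in ULB than in GOM by 0.89 ± 0.13 in WG (adjusted p = 1.79e-08, edgeR) and by 1.26 ± 0.26 in WL (adjusted p = 0.000706, edgeR). In NC the same difference was 1.03 ± 0.48 (adjusted p = 0.111, edgeR), which did not pass, although it was called in 1 fit of all 12 groups, at 1.08 (adjusted p = 0.017, edgeR). MAD exceeded GOM in NC by 1.16 ± 0.37 (adjusted p = 0.026, edgeR), a call lost with the term for the library set (adjusted p = 0.133), and RAD exceeded GOM in WG by 0.61 ± 0.14. No step between nutritional groups was called for ADRA1A by edgeR or DESeq2, and 0 of 8 had an unadjusted p below 0.05, with log2 folds between -0.32 and 0.28.

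ADRA2A encodes the alpha-2A adrenoceptor, which couples to inhibitory G proteins, and is a single coding exon at chr14:121469572-121470924 on the plus strand. In contrast with ADRB1, its NC median was highest in GOM, with 3.72 TPM in GOM (range 0.699 to 7.28), 1.35 in MAD (0.318 to 3.29) and 0.627 in RAD (0.130 to 1.85). The NC ULB samples stood at 1.84, 1.85, 2.12, 0.782 and 2.32 TPM. WG medians were 4.07, 2.02, 1.74 and 2.67 TPM in GOM, MAD, RAD and ULB. In WL the medians were 5.20 TPM in GOM and 6.72 in MAD against 1.28 in RAD and 1.57 in ULB, so that GOM and MAD stood together above RAD and ULB. ADRA2A was lower in RAD than in GOM in NC by 5.46-fold (log2 -2.45 ± 0.39, adjusted p = 4.99e-05, edgeR), in WG by 2.18-fold (log2 -1.12 ± 0.19) and in WL by 4.52-fold (log2 -2.18 ± 0.41).

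MAD was lower than GOM for ADRA2A in NC, at -1.66 ± 0.37, and in WG, at -0.81 ± 0.17, but in WL the difference was -0.17 ± 0.40 (adjusted p = 0.884, edgeR). In WL, MAD instead exceeded RAD by 3.99-fold and ULB by 3.40-fold, and GOM exceeded ULB by 3.88-fold. From WG to WL, ADRA2A rose in MAD by 1.3 ± 0.27 (adjusted p = 0.0004, edgeR). It stood at 0.67 ± 0.25 in GOM, -0.35 ± 0.36 in RAD and -0.83 ± 0.31 in ULB, none of which passed in edgeR. Of the 4 depots, 3 had an unadjusted p below 0.05 (edgeR), and DESeq2 called 2. The change in MAD differed from that in ULB by 2.14 ± 0.44 (adjusted p = 0.000178, edgeR), and the change in GOM by 1.52 ± 0.43 (adjusted p = 0.0469, edgeR). From NC to WG, ADRA2A rose in RAD by 1.13 ± 0.36 (adjusted p = 0.012, edgeR). Libraries under 88% numbered 6 of 10 in WL MAD and 2 of 36 in WG MAD. With the term for the library set, the rise in MAD was 0.83 (adjusted p = 0.0897, edgeR) and that in RAD from NC to WG 1.15 (adjusted p = 0.117, edgeR). In libraries at 88% or more, none of the 4 WL depot differences was called, the values being between -1.72 and -1.16, and ADRA2A fell from WG to WL in ULB by 1.16 (adjusted p = 0.0263, edgeR). The NC difference of -1.33 ± 0.45 between GOM and ULB was -0.70 with the replicate number as a block (adjusted p = 0.511, edgeR), and it missed the threshold when NC ULB replicate 2, 7 or 9 was left out.

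Across the samples, ADRA2A exceeded ADRB1 in TPM in 8 of 9 NC GOM and 32 of 45 WG GOM samples but in none of the NC MAD, RAD or ULB samples. The WG counts were 2 of 36 for MAD, 3 of 39 for RAD and 23 of 38 for ULB. In WL the counts were 4, 2, 0 and 0 of 10 in GOM, MAD, RAD and ULB. The median log2 ratio, with 0.1 TPM added to both genes, was 0.58 in WG ULB and -2.73 in WL ULB, where no sample reached 0. This ratio was described and not tested.

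The 3 natriuretic peptide receptor genes are shown with the 250 bases before their RefSeq starts, because the acetylated regions described further down lie over these genes and because the genes share a family but not a level. The stretches are chr4:95974254-95974503 on the minus strand for NPR1, chr1:236508744-236508993 on the plus strand for NPR2 and chr16:18841290-18841539 on the plus strand for NPR3, all read 5′ to 3′ from Sscrofa11.1 (RefSeq). Capitals mark matches on either strand to TGACG, the core of a cyclic AMP response element, or to GGGCGG, a GC box.
NPR1: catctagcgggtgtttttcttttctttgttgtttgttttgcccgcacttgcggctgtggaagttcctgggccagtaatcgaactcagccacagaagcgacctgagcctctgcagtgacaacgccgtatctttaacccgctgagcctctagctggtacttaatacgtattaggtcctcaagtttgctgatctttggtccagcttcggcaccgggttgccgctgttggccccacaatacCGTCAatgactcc
NPR2: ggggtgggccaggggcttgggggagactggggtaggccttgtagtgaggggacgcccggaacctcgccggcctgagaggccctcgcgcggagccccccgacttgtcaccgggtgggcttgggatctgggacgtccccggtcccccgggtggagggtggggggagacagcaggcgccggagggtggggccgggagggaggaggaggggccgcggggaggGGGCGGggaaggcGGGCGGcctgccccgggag
NPR3: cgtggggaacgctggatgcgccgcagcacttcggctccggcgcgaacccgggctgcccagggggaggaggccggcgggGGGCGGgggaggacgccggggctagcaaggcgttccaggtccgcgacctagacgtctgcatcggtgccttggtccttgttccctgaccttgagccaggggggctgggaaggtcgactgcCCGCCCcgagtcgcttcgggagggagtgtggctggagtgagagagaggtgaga

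The NPR1 stretch held 52% G and C and a match to TGACG that began 13 bases before the start. Those of NPR2 and NPR3 held 77.6% and 70.8%, each with 2 matches to GGGCGG, against a median of 57.6% in 19534 promoters. TGACG was present in 19.6% and GGGCGG in 45.9% of these promoters. Matches to the 2 motifs did not overlap. The E-box CACGTG, the CCAAT box, TATAAA and AGAACA were also searched, and none matched in the 3 stretches. These motifs were present in 6.39%, 31.9%, 9.76% and 10.3% of the promoters.

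NPR1, at chr4:95957220-95974253, encodes the guanylyl cyclase receptor of atrial and B-type natriuretic peptides. In NC it ranged from 47.8 to 103 TPM in GOM (median 87.9), from 42.6 to 243 in MAD (median 145) and from 71.8 to 189 in RAD (median 96), and the ULB samples stood at 94.4, 94.0, 154, 74.1 and 125 TPM. The WG medians were 145, 183, 166 and 124 TPM in GOM, MAD, RAD and ULB, and the WL medians 136, 152, 180 and 194 TPM. ULB moved from the lowest median in WG to the highest in WL. The rise in ULB was 1.43-fold, or 0.51 ± 0.11 on the log2 scale (adjusted p = 0.000436, edgeR), below the limit of 1.5-fold. The change in MAD, at -0.25 ± 0.18, differed from that in ULB by -0.74 ± 0.22 (adjusted p = 0.016, edgeR), and this difference was -0.66 in libraries at 88% or more (adjusted p = 0.514, edgeR). In GOM, NPR1 stood 1.49-fold higher in WG than in NC (adjusted p = 0.0074, edgeR), and 1 depot difference was called, GOM to MAD in NC at 0.75 ± 0.22 (adjusted p = 0.018, edgeR). With the term for the library set, the former was called at 0.91 and the latter was 0.52 (adjusted p = 0.29, edgeR).

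NPR2, at chr1:236508994-236529172, encodes the receptor of C-type natriuretic peptide. Relative to its level, it had the narrowest spread of group medians of the 7 genes, from 9.33 TPM in WG ULB to 13.2 in WG MAD, and was not called in any comparison by edgeR or DESeq2. In 2 of 6 NC, 4 of 6 WG and 1 of 6 WL depot tests its unadjusted p was below 0.05. Its log2 folds lay between -0.22 and 0.07 in the 8 comparisons of nutritional groups. The values nearest to the limit were in ULB, which stood 1.42-fold below MAD in WG (adjusted p = 0.000123, edgeR), and 1.38-fold below both MAD (adjusted p = 0.16, edgeR) and GOM (adjusted p = 0.0462, edgeR) in NC.

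NPR3, at chr16:18841540-18929813, encodes the clearance receptor. In NC it ranged from 9.07 to 37.9 TPM in GOM (median 23.6), from 8.32 to 51.4 in MAD (median 30.8) and from 15.8 to 47.8 in RAD (median 28.9). The NC ULB samples stood at 15, 10.1, 62.6, 19 and 9.45 TPM, the highest being replicate 7. In WG the medians were 37.7, 49.5, 50.7 and 19.4 TPM in GOM, MAD, RAD and ULB. In WL they were 92.7 (56.6 to 161), 129 (17 to 189), 163 (70.0 to 354) and 71.7 TPM (31.9 to 156). The order of the depots by median was the same in WG and WL, with RAD and MAD highest and ULB lowest, and each depot's median was highest in WL.

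The macrophage and endothelial medians were higher in WG than in NC in every depot, ULB included (369 against 334 and 582 against 461 TPM). From WG to WL the macrophage medians were lower in the visceral depots, at 370, 370 and 401 against 578, 470 and 428 TPM in GOM, MAD and RAD. In ULB the macrophage median was higher, and endothelial medians were higher in every depot. Their part in the NPR3 changes was not tested. NPR3 rose in both steps in the visceral depots. From NC to WG it rose by 0.69 ± 0.26 in GOM (adjusted p = 0.0339, edgeR), 0.68 ± 0.21 in MAD (adjusted p = 0.0197, edgeR) and 0.77 ± 0.21 in RAD (adjusted p = 0.00393, edgeR). ULB stood at -0.06 ± 0.37 (adjusted p = 0.966, edgeR), and at 0.64 without NC ULB replicate 7 (adjusted p = 0.443, edgeR). The change in ULB was not called different from that in GOM, MAD or RAD, with or without the block. From WG to WL, NPR3 rose by 1.14 ± 0.21 in GOM (2.21-fold, adjusted p = 0.000192, edgeR), 1.04 ± 0.22 in MAD (2.06-fold, adjusted p = 0.000513), 1.56 ± 0.21 in RAD (2.94-fold, adjusted p = 5.92e-07) and 1.52 ± 0.24 in ULB (2.88-fold, adjusted p = 7.18e-06). All 4 calls remained with the term for the library set and in libraries at 88% or more. The rises from NC to WG in GOM and RAD did not, with adjusted p of 0.114 and 0.134 with the term.

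ULB was lower in NPR3 than MAD and RAD in WG, by 2.18-fold and 2.52-fold, and lower than GOM by 1.70-fold. In WL, RAD exceeded ULB by 2.59-fold (adjusted p = 0.0032, edgeR) and GOM by 1.94-fold (adjusted p = 0.00416, edgeR), the latter being lost in libraries at 88% or more (log2 0.60). No NPR3 difference was called between depots in NC. Without NC ULB replicate 7, ULB was lower than RAD there as well, at -1.21 ± 0.31 (adjusted p = 0.0374, edgeR).

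The level of the clearance receptor was also set against that of the signalling receptor in each sample. The median log2 ratio of NPR3 to NPR1 TPM, with 0.1 TPM added to both, was -1.93, -2.53, -2.05 and -2.65 in GOM, MAD, RAD and ULB of NC, and -1.86, -1.72, -1.51 and -2.64 in WG. In WL it was -0.51, -0.46, -0.14 and -1.57. NPR1 was the more abundant transcript in every NC and WG sample. NPR3 exceeded it in 1, 1, 5 and 0 of 10 WL samples from GOM, MAD, RAD and ULB. The ratio was described and not tested.

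**Figure D4:**
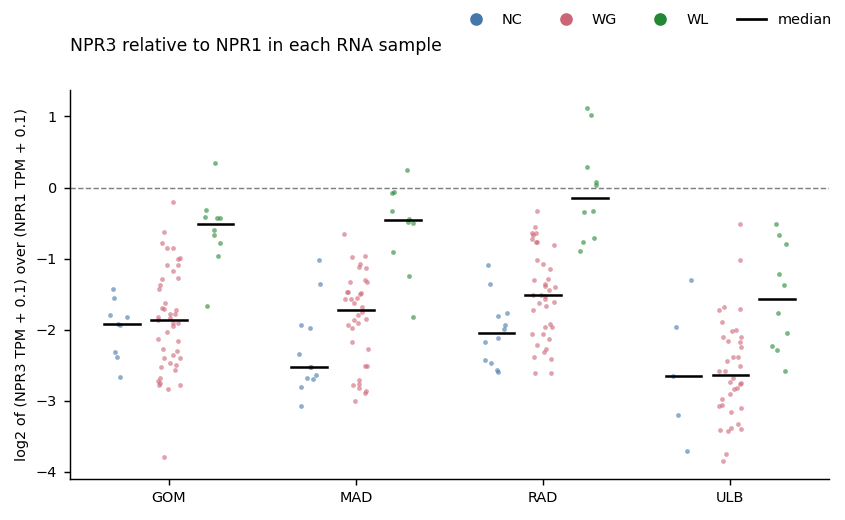
log2 of NPR3 TPM over NPR1 TPM, 0.1 added to both, in each RNA sample, by depot on the x axis and by nutritional group in colour, with a black line at each median and a dashed line at equal TPM. The WL medians lie at -0.51, -0.46, -0.14 and -1.57 in GOM, MAD, RAD and ULB, above those of NC and WG in each depot.

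Whether the change between nutritional groups differed from that in ULB was tested for each of the other depots in 1 fit of all 12 groups, and 3 of 36 tests were called, all from WG to WL. They were the ADRA2A tests for GOM and MAD and the NPR1 test for MAD given above. From NC to WG, 3.88%, 0.883% and 0.372% of all genes were called for GOM, MAD and RAD, and none of the 18 member tests was by edgeR or DESeq2, with 1 at an unadjusted p below 0.05. The smallest adjusted p among them was 0.215, for ADRB1 in GOM. From WG to WL the shares of all genes were 0.995%, 6.96% and 0.153%. In libraries at 88% or more none of the 36 tests was called. That fit held no block, although samples of 1 nutritional group that share a number deviated together between depots. With the replicate number as a block, an alternative chosen after seeing the data, 8 of 36 tests were called, namely the same 3, ADRB1 in MAD and RAD from WG to WL, NPR1 in GOM from WG to WL (-0.53 ± 0.15, adjusted p = 0.0258, edgeR), and in GOM from NC to WG ADRB1 (1.17 ± 0.43, adjusted p = 0.0252, edgeR) and NPR1 (0.57 ± 0.19, adjusted p = 0.0152, edgeR). The shares of all genes were higher too, at 33.6%, 5.32% and 11.8% from NC to WG and 3.83%, 15.2% and 1.47% from WG to WL for GOM, MAD and RAD.

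Compartments were read from 240 in situ Hi-C maps through the A-B index that the authors calculated for bins of 20 kb, in which positive values mark a bin that contacts active (A) chromatin more than inactive (B) chromatin. The bin holding each gene start was used. NPR2, ADRB3 and NPR1 had the highest indices, with group means of 4.36 to 5.93, 3.98 to 5.20 and 3.69 to 4.31. NPR3 and ADRB1 were lower but positive in nearly every sample, and ADRA2A lay close to 0, from -0.28 in NC ULB to 0.52 in WG GOM. ADRA1A was negative in all GOM, MAD and RAD samples. In ULB it was positive in 2 of 5 NC, 10 of 39 WG and 0 of 10 WL samples. The ADRA1A index ranged from -2.84 to -1.50 in NC GOM and from -0.67 to 0.29 in NC ULB, so these ranges were apart, as they were in WL, from -2.78 to -1.29 and from -0.75 to -0.20. They overlapped in WG. How many of all bins had ranges apart was not counted, so these ranges do not set ADRA1A apart from other bins.

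Between GOM and ULB, 5 of 21 tests were called (limma, adjusted p below 0.05 and a difference over 0.75). The shares of all bins called were 20.5% in NC, 18.8% in WG and 19.4% in WL. ADRA1A had a higher index in ULB in each nutritional group, by 2.09 ± 0.26 in NC (adjusted p = 5.29e-05, limma), 1.78 ± 0.10 in WG (adjusted p = 3.34e-27, limma) and 1.63 ± 0.18 in WL (adjusted p = 3.25e-07, limma). The ADRA1A transcript was also more abundant in ULB than in GOM in WG and WL. In MAD and RAD the ADRA1A index was negative in all samples, as in GOM, but it was not tested against ULB. The RNA medians there were 4.05 and 3.03 TPM against 3.59 in ULB in NC, and 3.57 and 3.38 against 4.77 in WG. In WL they were 2.84 and 3.04 TPM against 5.69. They thus lay below ULB in both depots in WG and WL, but in NC only in RAD. No ADRA1A RNA difference from ULB was called in MAD or RAD. Over all 6 pairs of depots, 3, 5 and 3 ADRA1A tests in NC, WG and WL had an unadjusted p below 0.05 (edgeR). In WL, ADRB1 and NPR3 had higher indices in ULB, by 0.90 ± 0.20 and 0.84 ± 0.16, whereas the RNA differences between the same depots, -0.42 ± 0.25 for NPR3 and 0.35 ± 0.26 for ADRB1, were not called. Between nutritional groups 1 of 56 tests was called. The NPR2 index rose in MAD from NC to WG by 1.03 ± 0.18 (adjusted p = 6.07e-05, limma), while its RNA stood at -0.04 ± 0.13. That call was lost after quantile normalization of the index. The shares of all bins called from NC to WG were 2.79%, 4.47%, 4.32% and 6.15% in GOM, MAD, RAD and ULB, and from WG to WL 2.53%, 1.01%, 3.83% and 9.96%. For NPR3, whose RNA rose in all depots from WG to WL, no index difference was called. For ADRB1 the nearest was ULB, at 0.48 ± 0.15 (adjusted p = 0.0125, limma), under the limit of 0.75.

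**Figure D5:**
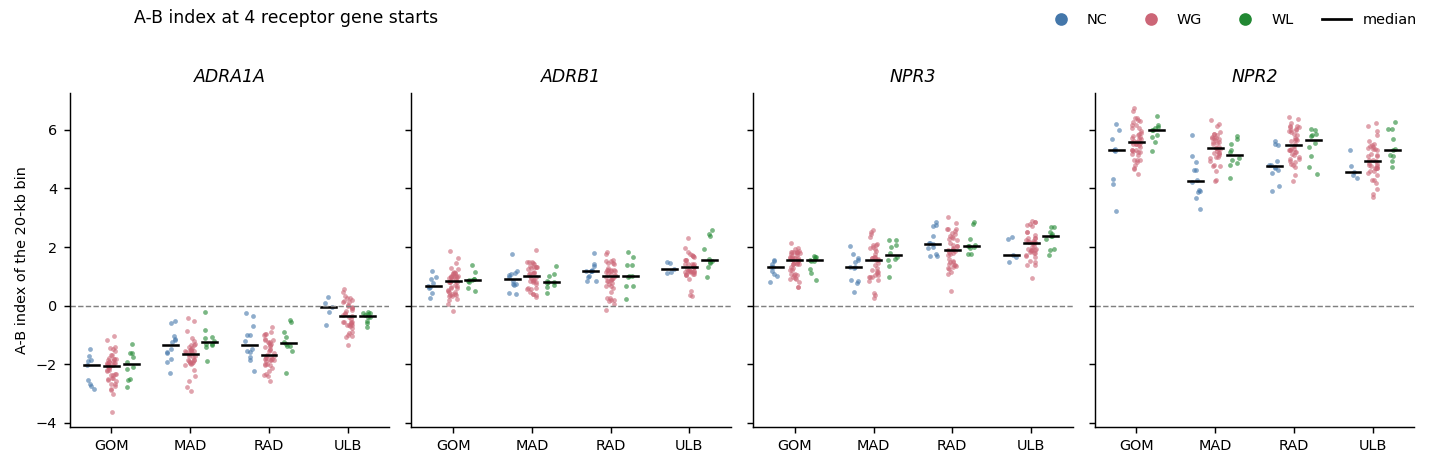
A-B index of the 20-kb bin holding the start of ADRA1A, ADRB1, NPR3 and NPR2 in each Hi-C sample, by depot on the x axis and by nutritional group in colour, with a black line at each median and a dashed line at 0. ADRA1A lies below 0 in the visceral depots and near 0 in ULB, with a GOM to ULB difference of 2.09, 1.78 and 1.63 in NC, WG and WL.

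Active chromatin was read from 18 region tables of H3K27ac, a histone mark of active promoters and enhancers, each made from the pooled reads of 1 to 11 samples, and its values were described without a test. WG samples had been split into sub-groups by the authors, giving 10 WG tables. The regions of the 4 NC tables held 63.0% to 71.4% of gene starts, against 23.8% to 43.6% in WG and 39.9% to 44.6% in WL, and NC regions were not compared with the others. Where a table held several regions over a gene, the 1 of highest rank by signal was used. A region lay over NPR1 in 16 tables. It was marked as a super-enhancer, a long region ranked high in signal, in 4 of 4 NC, 2 of 10 WG and 4 of 4 WL tables. Of all regions, 4.51% to 5.84%, 1.98% to 6.79% and 5.62% to 6.53% were so marked. NPR1 spans 17034 bases, while its regions were 179 to 260 kb, 5.8 to 38.8 kb and 34.6 to 93.4 kb long. The mark depends on length, and the NC count is not set against the others. Only the WG and WL ratios follow. The H3K27ac signal over input of the NPR1 region was 2.49 to 3.82 in the 8 WG tables that had it and 4.56 to 5.21 in the 4 WL tables. The medians over all regions were 1.55 to 1.81 in WG and 1.85 to 1.92 in WL, so the median of all regions was higher in WL too. The highest-ranked region over NPR1 exceeded 91.8% to 99.3% of all regions in WG and 96.5% to 96.6% in WL. Over all 11 regions on NPR1 in WG the ratio was 1.45 to 3.82, the lowest being in a ULB table, and exceeded 36.8% to 99.3% of regions.

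A region lay over some part of NPR3, a gene of 88274 bases, in all 18 tables and was never a super-enhancer. Ratios were 1.23 to 2.40 in WG and 1.49 to 3.71 in WL, above 4.29% to 84.6% and 22.6% to 91.9% of regions. The NPR3 start lay inside a region in 3 of 10 WG and 2 of 4 WL tables. In WL the ratio of 3.71 was from a ULB region over the start. The WL regions used in GOM, MAD and RAD lay 37660 to 38260 bases from it. The ranges thus mix different parts of the gene. Over NPR2 the ratios of the highest-ranked region were 2.54 to 3.62 in 9 WG tables and 3.45 to 4.86 in the 4 WL tables, and those of all regions over the gene were 1.33 to 3.62 and 1.53 to 4.86. The highest-ranked regions lay 14406 to 18206 bases from the start of this gene of 20179 bases and ran past its end. Their ratios are thus not of NPR2 alone. The NPR2 start lay inside a region in 3 of 10 WG and 1 of 4 WL tables. The highest-ranked NPR2 region exceeded 92.0% to 97.8% of all regions in WG and 87.8% to 95.6% in WL. Its place among all regions was thus not higher in WL. The adrenoceptor genes were covered in fewer of the WG and WL tables. A region over ADRB1 was present in 2 of 10 WG tables, from MAD and RAD, and in the WL table of RAD alone, where its ratio of 3.56 exceeded 88.2% of regions. ADRA2A had no region over it in WG or WL. The paper states that ROSE was set to leave out promoter regions. ADRA2A and ADRB1 are only 1353 and 1410 bases long and so lie close to their promoters. A missing region over them is therefore not shown to be a missing mark. ADRA1A and ADRB3 were covered in 8 and 7 WG tables and in 3 WL tables each. The ADRB3 ratios were 2.18 to 2.40 in WL, above 63.8% to 72.8% of regions. ADRB3 spans 9568 bases, while its regions were 22.8 to 58 kb long in WG and 39 to 56.4 kb in WL. These ratios are thus not of ADRB3 alone. ADRA1A spans 109988 bases, and its start lay inside no region in WG or WL.

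The genes whose log2(TPM + 1) followed each member most closely over all RNA samples, which share depots, diets and animals, are given as a description. SEMA3G (r = 0.73), ITGB1 (0.66) and FAM174B (0.65) were nearest to NPR3, and FAM174B was also among those nearest to ADRB1 (0.67), with GSC (0.69) and BTNL9 (0.67). For NPR1 they were SLC12A7 (0.77), KIFC3 (0.76) and TINAGL1 (0.76). NPR2 had the closest neighbours, SYMPK, DCAF7 and KMT2B (each 0.88). ADRA2A was followed most closely by ROR2 (0.71), GDPD5 (0.71) and ETV5 (0.69), and ADRA1A by PCDH17 (0.67), EBF3 (0.66) and RASGRF2 (0.59). For ADRB3 no gene exceeded 0.47. Among the members themselves, the largest r was 0.53 for ADRB1 and NPR3, and it was 0.20 for deviations from the group means. For ADRB1 and NPR1 it was 0.50 on both.

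Signalling genes around the receptors were read from 10 role lists with 65 matched genes. From NC to WG, 8, 8, 7 and 2 of 52 to 54 tested genes were called in GOM, MAD, RAD and ULB, of which 6, 2, 1 and 0 were higher in WG. The shares of all genes called were 26.7%, 10.7%, 16.7% and 2.38%. From WG to WL, 6, 15, 5 and 7 of 53 to 55 were called in the same depots, of which 3, 6, 4 and 5 were higher in WL, beside 5.26%, 17.4%, 6.37% and 8.12% of all genes. The median log2 fold of the lists was -0.04, -0.16, 0.03 and 0.06 in GOM, MAD, RAD and ULB in that step, beside -0.04, -0.02, -0.01 and -0.02 over all genes tested. GOM against ULB gave 23 of 54 called in NC (12 higher in ULB), 17 of 53 in WG (5 higher) and 15 of 55 in WL (8 higher), beside 25.4%, 17.9% and 16% of all genes. In libraries at 88% or more, an alternative chosen after seeing the data, 0, 6, 4 and 2 list genes were called from NC to WG in GOM, MAD, RAD and ULB, 5, 1, 11 and 6 from WG to WL, and 6, 15 and 11 between GOM and ULB in NC, WG and WL. With the term for the library set the counts were 11, 7, 4 and 2, then 3, 12, 7 and 7, then 22, 15 and 17.

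Of the other adrenoceptors, ADRA1B rose from WG to WL in MAD, RAD and ULB by 0.76 ± 0.22, 0.89 ± 0.20 and 0.92 ± 0.15, with medians going from 1.78 to 3.77 TPM in ULB. ADRA2B and ADRA2C, both inhibitory, rose in GOM from NC to WG by 0.74 ± 0.20 and 1.47 ± 0.41, and ADRA2B was lower in ULB than in GOM in NC, WG and WL. SLC22A3, a transporter that takes up catecholamines outside neurons, fell from NC to WG in MAD, RAD and ULB, by 0.95, 1.12 and 1.20 on the log2 scale, and rose from WG to WL in GOM, MAD, RAD and ULB by 0.89 ± 0.26, 0.73 ± 0.22, 1.13 ± 0.20 and 0.93 ± 0.22. MAOB, a monoamine oxidase, was 9.67 TPM in WL GOM against 1.14 TPM in WL ULB, and DDC, an aromatic amino acid decarboxylase, rose in RAD from WG to WL by 1.49 ± 0.50. TH, DBH and PNMT, the other enzymes of catecholamine synthesis, lay under 0.5 TPM in every group. With the term for the library set and in libraries at 88% or more alike, the calls of ADRA1B and SLC22A3 in MAD from WG to WL and that of DDC were lost. SLC22A3 in GOM was lost with the term only. The GOM calls of ADRA2B and ADRA2C from NC to WG, and those of ADRA2B between GOM and ULB in NC and WL, were lost in libraries at 88% or more only.

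Among the genes next in the cyclic AMP path, GRK3, a kinase that desensitises receptors, fell from WG to WL in GOM, MAD and RAD by 0.78, 0.61 and 0.73 on the log2 scale. GRK5 of the same family was lower in ULB than in GOM, with 10.2 and 29.7 TPM in WG, whereas GRK3 was higher in ULB, with 107 and 73.5 TPM. The adenylyl cyclases ADCY2 and ADCY3 differed in opposite directions, ADCY2 being higher in ULB than in GOM by 1.54 ± 0.15 in WG and ADCY3 lower, at -0.90 ± 0.12. PRKAR2B, a regulatory subunit of protein kinase A, fell from NC to WG in MAD (437 to 200 TPM) and RAD (431 to 262 TPM). The phosphodiesterase PDE8B fell in MAD in both steps, from 41 to 30.3 to 17.3 TPM, while PDE4B and PDE7A rose there from WG to WL by 1.23 ± 0.21 and 1.21 ± 0.21. Of the lipolysis genes, PLIN1, which coats the lipid droplet, rose from WG to WL in ULB from 762 to 1228 TPM, and the lipases LIPE and MGLL fell in MAD by 0.63 and 0.68. The MAD calls of PDE8B in both steps, of GRK3 and of PDE7A, and the PLIN1 call, were lost under both library settings, the PLIN1 difference being then 0.53 and 0.49. Those of PDE4B, LIPE and MGLL were lost in libraries at 88% or more only, and that of GRK3 in GOM with the term only.

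In the cyclic GMP path, PRKG1, a cyclic GMP-dependent kinase, was lower in ULB than in GOM in each nutritional group, with 6.09 against 25.6 TPM in NC, 7.31 against 22.4 in WG and 6.89 against 23.6 in WL. PDE5A, which breaks down cyclic GMP, was lower in ULB in NC and WG, at -0.91 ± 0.18 and -1.03 ± 0.07. MME, or neprilysin, which degrades natriuretic peptides, differed between depots, with 1.57 TPM in WG GOM and 18.5 TPM in WG ULB (3.56 ± 0.19). It fell from NC to WG in GOM, from 3.95 to 1.57 TPM, a call lost in libraries at 88% or more (adjusted p = 0.205, edgeR). PRKG2 and the peptide genes NPPC and OSTN lay under 0.5 TPM in every group. GNAS, NPPA and MAOA were not matched by symbol and were not analysed here.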

How the data were processed

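The authors quantified RNA-seq reads with kallisto 0.43.0 and deposited TPM values and expected counts (estimated counts that need not be whole) per gene on Sscrofa11.1. They also deposited A-B index scores per 20-kb bin from Hi-C, and region signals of pooled H3K27ac and input reads (BWA 0.7.15, SAMtools 1.3.1, SICER, ROSE). In each of the expression and index tables, 9 columns matched no label and were not used. Expected counts were rounded and tested with edgeR 4.0.16 (R 4.3.3, TMM factors, quasi-likelihood F test) on PCGs that exceeded 0.5 TPM in 80% or more of either group's samples. A call needed a Benjamini-Hochberg adjusted p below 0.05 and a fold over 1.5. Changes that differed between depots were contrasts in 1 fit of 12 groups, called on adjusted p alone. The index was tested with limma 3.58.1, with a minimum difference of 0.75. Members and lists were chosen with earlier results of these data known. Values of the 7 members are given throughout. In each pathway role, up to 3 genes with the most calls over the comparisons and those under 0.5 TPM in every group could be named. Groups came from the labels. Samples of 1 group and depot came from different pigs. Samples with the same replicate number in different depots deviated together in RNA: in WG the median correlation of such pairs was 0.59 to 0.66, and every pair exceeded 0.1 in NC GOM and ULB, WG MAD and ULB, WG RAD and ULB, and WL MAD and RAD. The pairing was read from the numbers in the labels and this check. Alternatives were DESeq2 1.42.0, RLE factors, no TPM filter, a term for or splits by the library set, the replicate block, 1 fit of 12 groups, no minimum change, quantile normalization, other bins, and leaving out each NC ULB replicate. The block in the fit of 12 groups and the library set for pathway genes were added after seeing the data. Scripts were tested on simulated data.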

Additional observations from a re-analysis of the deposited data

Results flagged for a closer look

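Of 84 groups examined for a sample far from the rest (42 for TPM and 42 for the A-B index), 5 had such a sample, all for TPM. About 1 in 20 groups would be flagged by chance if the values were normally distributed, which was not tested for TPM. The larger groups, those of WG and of NC MAD and RAD, were not examined. WL ULB replicate 6 had 10.7 TPM of ADRA1A against 6.97 in the next sample. WL replicate 3 had the highest ADRB1 in both GOM, at 24.7 TPM against 14.1, and RAD, at 41.3 TPM against 25.8. WL ULB replicate 5 had 0.425 TPM of ADRB3, and NC ULB replicate 7 had 62.6 TPM of NPR3 against 19 in the next sample. Leaving these samples out, an alternative chosen after seeing the data, ended the ADRB1 call between GOM and RAD in WL (0.69, adjusted p = 0.105, edgeR) when the RAD sample was dropped. It gave an NPR3 call between RAD and ULB in NC (-1.21, adjusted p = 0.0374, edgeR). The ADRB1 call between GOM and RAD in WL stayed when the GOM sample was dropped (1.12, adjusted p = 0.00731, edgeR). ADRB1 from WG to WL stayed called in GOM at 1.29 and in RAD at 0.83.

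Changes from WG to WL that differed between depots were flagged for ADRA2A in GOM relative to ULB (1.52 on the log2 scale, adjusted p = 0.0469, edgeR) and in MAD relative to ULB (2.14, adjusted p = 0.000178, edgeR), and for NPR1 in MAD relative to ULB (-0.74, adjusted p = 0.016, edgeR). ADRA2A in GOM relative to ULB had an adjusted p of 0.0535 without the TPM filter and of 0.0854 with the term for the library set (edgeR).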

How the results depend on the processing

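No member value changed sign where it had been called. DESeq2, RLE factors and the removal of the TPM filter left each count of calls within 1.5 times. The library set had the widest effect. Calls between depots in NC went from 7 to 4 with a term for it, to 3 in libraries at 88% or more and to 2 in those under 88%. In libraries at 88% or more, calls in WL went from 8 to 3 and calls of changes that differed from ULB from 3 to 0. These splits also remove samples. Without a minimum fold, calls between depots in WG were 21 instead of 12. For the A-B index, dropping the minimum difference gave 13 instead of 5 calls between GOM and ULB and 9 instead of 1 between nutritional groups, and quantile normalization gave 0 of the latter (limma). The cause was not tested. Leaving out each NC ULB replicate gave 6 to 8 calls between depots in NC, 4 to 4 from NC to WG, 3 to 3 for changes that differed from ULB, 5 to 6 for the index between GOM and ULB and 1 to 2 between nutritional groups, the 2 being without replicate 2. With the replicate number as a block, calls between depots were 8 in NC, 14 in WG and 9 in WL, and index calls between GOM and ULB 5. The block raised calls of changes that differed from ULB from 3 to 8. In pairs of depots where not every pair of samples correlated, the block added ADRA1A (NC and WL GOM to RAD, WG GOM to MAD) and NPR3 (NC and WG GOM to RAD). It ended no call other than that of ADRA2A between GOM and ULB in NC. For genes of the pathway lists, 9 (DESeq2) and 8 (RLE factors) rather than 5 were called in RAD from WG to WL. In 1 fit of all 12 groups, ADRA1A was also called from GOM to ULB in NC and from GOM to RAD in NC and WL, and NPR1 from GOM to RAD in NC and in GOM from NC to WG, while ADRB1 from GOM to RAD in WL was not (adjusted p = 0.109, edgeR). Depth limits ADRB3, whose group medians were at most 15.6 estimated counts.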
